A study of Mus musculus with 3 samples.

Results

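The peaks described here are the regions of TBX5 chromatin immunoprecipitation (ChIP-seq) signal that lie at an end of a single gene. A peak was taken when its summit, the position of highest enrichment, stood no more than 1 kb from the outermost base of exactly 1 RefSeq protein-coding gene, at either end, in mouse build mm10. The rule used positions only, and 4248 of the 28381 deposited peaks met it (14.97%, exact 95% binomial interval 14.6 to 15.4). A further 733 peaks lay at ends of 2 or more genes, 11753 lay inside genes more than 1 kb from their ends, and 11647 lay between genes. The 4248 peaks marked 3599 of 21631 protein-coding genes, 16.6% of them. A gene is called marked below when it had such a peak. Intervals in parentheses are exact 95% binomial intervals and cover counting error only.

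The ChIP libraries, 2 in number, and 1 input library were made from the lungs of E14.5 embryos of the outbred CD-1 strain, a stage of airway branching, with 1 whole lung for each replicate. They were read as 50-base single ends, and no treatment or genotype was compared. A single list of peaks represents the 3 libraries, so no spread between the ChIP libraries can be measured and their depth is unknown. The titles name lung throughout, but the source field names heart for the second ChIP library and for the input. Whole lung holds mesenchyme, epithelium, endothelium, blood, nerve and mesothelium, and binding in few cells cannot be told apart from weaker binding in many.

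TBX5 is a T-box transcription factor that acts in the heart, the forelimb and the mesenchyme of the developing lung. T-box proteins recognise a short DNA element whose half-site reads AGGTGTGA, and they bind both enhancers far from genes and the promoters at which transcription begins. Promoters of widely expressed genes tend to be rich in CpG dinucleotides and in GC boxes, and are open in most cells.

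The sequences shown first come from promoters that held both the half-site and the summit of a peak, and are the 5 with the highest −log10 q. RefSeq promoter windows of GRCm38.p6, the assembly of mm10, ran from 250 bases before to 50 after a listed start. The 30-base stretches below are written 5′ to 3′ on the strand of the gene, and capitals mark AGGTGTGA or its reverse complement.
Ubp1: agcgtaaccggTCACACCTcttccgccgcc
Gtdc1: gggcggagagcAGGTGTGAggagccgcgcc
Rel: gattcgggggtgggaAGGTGTGAgccgcaa
Ntmt1: ggggcgtggagAGGTGTGAgcaggccctgg
Rad51ap2: gggcgtggtggAGGTGTGAcaagggctggt
The Ubp1 stretch (chr9:113930990-113931019, plus strand) carried the half-site on the opposite strand, at −38.5 bp from the peak summit. That peak was 19.996-fold enriched and 524 bp wide. Ubp1 encodes a transcription factor of the grainyhead-like group. The Gtdc1 stretch (chr2:44927428-44927457, minus strand) had its half-site at −235.5 bp from the summit of a 7.08-fold peak, just beyond the edge of the peak. Rel, a subunit of NF-kappaB, had its half-site 35 bp past the listed start (chr11:23770920-23770949, minus strand), under a peak of 9.75-fold. The Ntmt1 half-site (chr2:30807737-30807766, plus strand) lay 2.5 bp from the summit of a 7.30-fold peak, the closest of the 5. Ntmt1 encodes a methyltransferase that modifies protein N-termini. The Rad51ap2 half-site (chr12:11455946-11455975, plus strand) lay 68.5 bp from the summit of a 7.45-fold peak. Of these peaks, the Ubp1 peak alone passed 10-fold.

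The next stretches are the bases upstream of the 3 promoters with the highest −log10 q that held no AGGTGT, the T-box core contained in the half-site. They are shown because such promoters made up most of those under the peaks. Capitals mark the GC box GGGCGG on either strand.
Ephb4: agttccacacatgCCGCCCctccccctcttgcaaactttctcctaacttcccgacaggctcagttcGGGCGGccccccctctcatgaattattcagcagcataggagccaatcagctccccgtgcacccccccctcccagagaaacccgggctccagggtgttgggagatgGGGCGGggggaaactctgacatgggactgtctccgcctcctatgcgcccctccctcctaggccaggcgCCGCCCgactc
Ccng2: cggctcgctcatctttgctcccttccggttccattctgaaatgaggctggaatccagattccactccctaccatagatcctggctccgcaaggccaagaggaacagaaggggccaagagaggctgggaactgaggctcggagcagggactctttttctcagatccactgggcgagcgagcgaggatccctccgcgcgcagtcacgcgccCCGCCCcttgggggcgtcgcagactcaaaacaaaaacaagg
Kmt2a: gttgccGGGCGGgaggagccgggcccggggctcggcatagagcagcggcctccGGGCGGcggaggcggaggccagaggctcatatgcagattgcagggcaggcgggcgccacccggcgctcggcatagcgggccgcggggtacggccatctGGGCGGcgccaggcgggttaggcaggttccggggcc
The Ephb4 stretch (chr5:137349859-137350108, plus strand) held 4 GC boxes, and the summit of its 34.9-fold peak lay 69 bp before the listed start. Ephb4 encodes a receptor for ephrin-B2 that takes part in the separation of arteries and veins. The Ccng2 stretch (chr5:93267323-93267572, plus strand) held 1 GC box under a 27.8-fold peak with its summit 167 bp before the start. Ccng2 encodes cyclin G2. The Kmt2a stretch (chr9:44881353-44881539, minus strand) held 3 GC boxes under a 27.7-fold peak, and Kmt2a encodes a histone H3 lysine methyltransferase. The absence of AGGTGT says only that these letters are not in the window.

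Both T-box patterns were searched on either strand in all 21045 RefSeq promoter windows, which belong to 17274 genes. The half-site AGGTGTGA stood in 25 of the 2901 promoters with a marking peak within 1 kb (0.862%, interval 0.558 to 1.27). It stood in 1.28% of the 16308 promoters with no peak within 1 kb and in 1.16% of all promoters. The core AGGTGT stood in 11.2% of the promoters with a marking peak (interval 10.1 to 12.4), in 13.4% of those with none and in 12.8% of all. The shares with a marking peak were thus not above those without one. Only 1581 of the 2901 promoters had the summit inside the searched window, so in the others the letters at the summit were not read. Where the summit fell inside the window, the core stood in 25 of 127 promoters under peaks of at least 10-fold (19.7%, interval 13.2 to 27.7). Under weaker peaks it stood in 173 of 1454 (11.9%, interval 10.3 to 13.7). The 2 intervals overlap only between 13.2 and 13.7, and the difference itself was not tested. The distance from core to summit was alike in both, with medians of 48.5 and 49.5 bp.

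Base composition differed more than the T-box letters did. The median GC content was 64.3% in the promoters with a marking peak and 54.3% in those with no peak. The GC box GGGCGG, bound by SP and KLF factors, stood in 74.2% of the former, in 39.5% of the latter and in 46.7% of all promoters. The ETS site CCGGAAG stood in 17.6%, 9.52% and 11.7% of the same sets, and the NRF1 site in 10.6%, 5.19% and 6.44%. The YY1 site AAGATGGCG stood in 3.48%, 1.31% and 1.84%. The TATA box TATAAA went the other way, with 5.69%, 14.8% and 12.7%, as did the GATA site AGATAA with 4.41%, 11.2% and 9.68%. Every motif was searched on both strands.

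Within bands of like GC content the motifs differed in how far the gap remained. Between 65% and 70% GC, the GC box stood in 85.1% of promoters with a marking peak and 82.7% of those with none, with overlapping intervals. Between 45% and 55% GC it stood in 37.2% (interval 32.4 to 42.1) and 19.6% (interval 18.5 to 20.7). The ETS site at that GC content stood in 15.2% (interval 11.8 to 19.1) and 7.42% (interval 6.72 to 8.18), and the NRF1 site in 6.48% (interval 4.28 to 9.36) and 2.19% (interval 1.80 to 2.63). The YY1 site at 55% to 60% GC stood in 4.62% (interval 2.88 to 6.97) and 1.74% (interval 1.27 to 2.31). At 65% to 70% GC the intervals overlapped for all 3 sites, with the ETS site in 16.8% and 18.8%, the NRF1 site in 12.96% and 12.5%, and the YY1 site in 2.45% and 1.95%. For the TATA box the intervals overlapped in every band. It stood in 13.2% and 15.2% at 45% to 55% GC, and in 7.69% and 7.32% at 55% to 60%. At 60% to 65% it stood in 5.79% and 4.87%, at 65% to 70% in 2.63% and 3.25%, and at 70% to 80% in 2.27% and 1.58%. The GATA site was not counted by band. The T-box core at 60% to 65% GC stood in 14.7% (interval 12.0 to 17.8) and 10.8% (interval 9.49 to 12.2). In the other bands the core was not more frequent with a marking peak. It stood in 14.96% and 16.5% at 45% to 55% GC, in 13.6% and 16.3% at 55% to 60%, in 8.76% and 8.78% at 65% to 70%, and in 7.37% and 7.83% at 70% to 80%. The half-site stood in 1.75% and 1.86% at 45% to 55% GC and in 0.659% and 1.74% at 55% to 60%. It stood in 0.828% and 0.882% at 60% to 65%, and in 1.05% and 0.780% at 65% to 70%. At 70% to 80% the half-site stood in 0.567% and 0.151%, and the intervals for it overlapped in every band. What part GC content or CpG density has in the calling of these peaks was not tested.

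**Figure D1:**
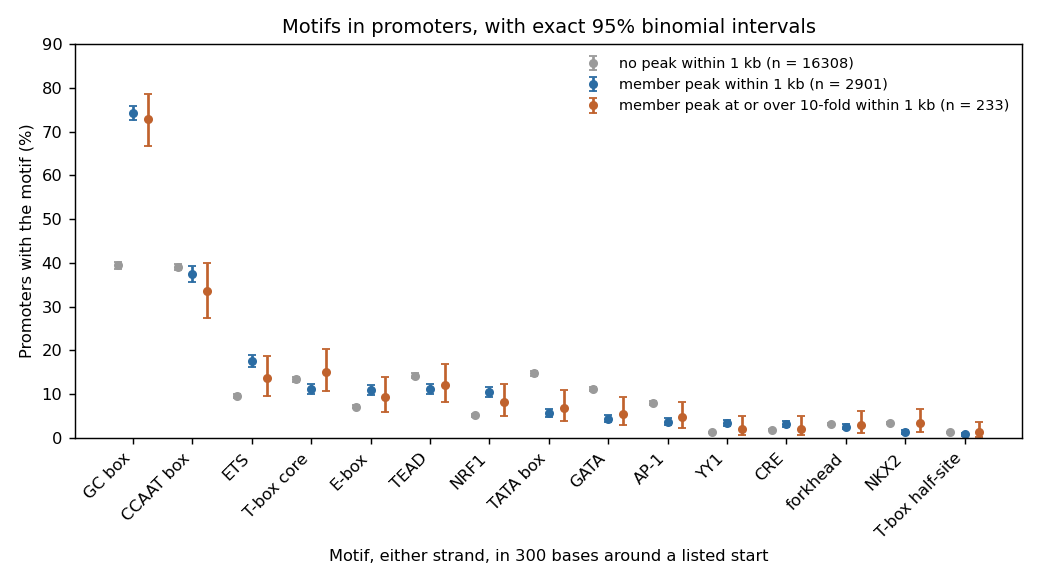
Share of promoters (y axis, %) holding each of 15 motifs (x axis) in the 300-base window, for promoters with no peak within 1 kb (grey), with a marking peak (blue) and with a marking peak of at least 10-fold (orange). Points are shares and bars are exact 95% binomial intervals, and the GC box shows the widest gap, 74.2% against 39.5%.

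The share of genes marked followed the CpG content of the promoter. Among genes with a CpG observed-to-expected ratio under 0.2, 61 of 3590 were marked (1.70%). The share was 12.6% at ratios of 0.4 to 0.6, 27.5% at 0.8 to 1 and 33.6% at ratios of 1 or more, where 544 of 1618 genes were marked. The share marked also differed with gene length. Genes of up to 2 kb were marked in 3.07% of cases and genes of 100 to 200 kb in 25.5%, and the median length was 29298 bp for marked and 15634 bp for other genes. On chromosome X, 4.97% of genes were marked, against 12.1% to 23.7% on the 19 autosomes. Chromosome X had few peaks of any kind, 415 against 773 to 2185 on each autosome. Of its peaks 12.5% were at an end of a single gene, within the 11.3% to 19.7% of the autosomes.

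Most of these peaks lay at gene starts, where a start is the outermost annotated base on the 5′ side. The gene's strand was known for 3342 of the 4248 peaks, and 3061 of those (91.6%, interval 90.6 to 92.5) had their summit nearer the start than the last base. Of the 3061, 2920 (95.4%) also lay within 1 kb of a start listed in the RefSeq promoter table, and 141 did not. The start peaks clustered tightly. Their median position was 37 bp inside the gene, the quartiles lay at −94 and 261 bp, and 62.5% had the summit within 250 bp of the start. The other 281 peaks were spread evenly over the 2 kb around the last base, with 24.2% within 250 bp of it. Of these 281, 11 lay within 1 kb of another listed start of the same gene.

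**Figure D2:**
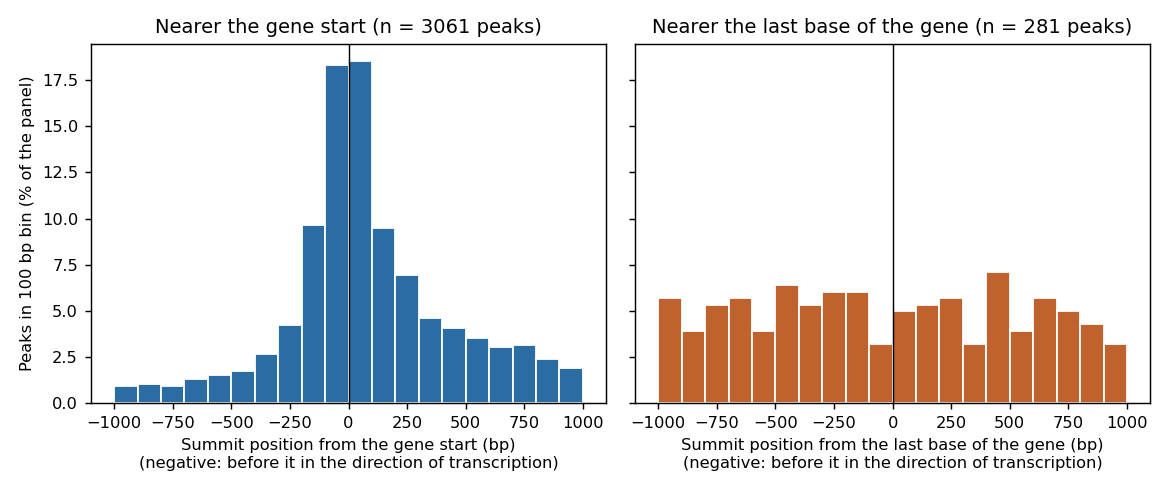
Position of the summit (x axis, bp, negative values before the end in the direction of transcription) as the share of peaks in 100 bp bins (y axis, %), for the 3061 peaks nearer the gene start (left) and the 281 nearer the last base (right). The left panel has its mode at the start, and the right panel has none at the last base.

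The peaks at the last base were fewer but more often strong than those at starts. At least 10-fold enrichment was seen in 55 of the 281 (19.6%, interval 15.1 to 24.7), against 235 of the 3061 start peaks (7.68%, interval 6.76 to 8.68). The caller's −log10 q ranks peaks by confidence, and a peak is called strong here when it is one of the top 5000 of the whole list. Last-base peaks made up 17.0% of the strong marking peaks of known strand and 7.65% of the rest. Their median fold was 6.13, against 5.44 at starts and 6.27 over all peaks. Over all peaks 21.2% reached 10-fold and 17.6% were strong, so the last-base peaks did not exceed the whole list. Of the last-base peaks, 16.4% were strong. Another summit lay within 10 kb of 63.3% of them, against 44.1% of start peaks. Mboat1, a lysophospholipid acyltransferase, carried the highest fold of all 4248 peaks, 45.9, at chr13:30245448-30245954, inside the gene 926 bp before its last base. Adra1b, the alpha-1B adrenergic receptor, had a 44.2-fold peak 601 bp past its last base (chr11:43773746-43774426). The next strongest, picked after their values were seen, were Hic1 at 26.2-fold and Csrp3, a muscle LIM protein, at 32.0-fold.

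Among start peaks, those before the gene were stronger than those inside it. At least 10-fold enrichment was seen in 9.88% of the 1295 peaks before the start (interval 8.31 to 11.6) and in 6.06% of the 1766 inside (interval 4.99 to 7.27). The median fold was 5.64 before and 5.24 inside.

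Fold enrichment at these gene ends was low beside the rest of the list. The median was 5.49 (quartiles 4.51 and 7.06, range 2.59 to 45.9), against 6.59 inside genes and 6.597 between genes. At least 10-fold enrichment was found in 381 peaks (8.97%, interval 8.13 to 9.87), while 21.2% of all peaks reached it. Of the 5000 strong peaks, 358 were at an end of a single gene. That is 8.43% of the 4248 (interval 7.61 to 9.30), against 17.6% of all peaks. At 20-fold or more there were 55 of 1492 peaks, and 14 passed 30-fold. The 733 peaks at shared ends had almost the same median, 5.49, and 6.82% of them reached 10-fold. Peaks just inside the 1 kb limit, at 900 to 1000 bp, numbered 152 with a median fold of 5.82, and 134 peaks just outside it, at 1000 to 1100 bp, had a median of 5.54.

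**Figure D3:**
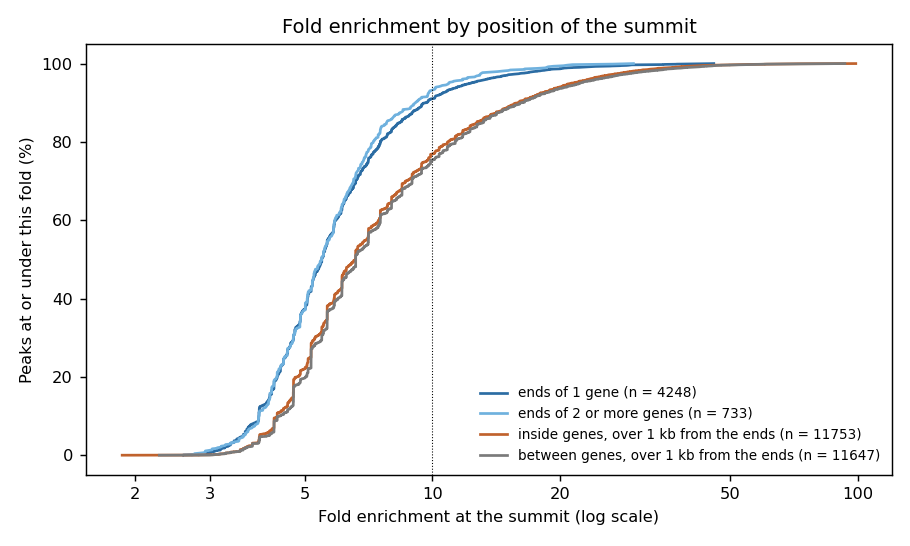
Cumulative share of peaks (y axis, %) at or under a given fold enrichment (x axis, log scale) for the 4 classes of position, with a dotted line at 10-fold. The curves for ends of 1 gene and of 2 or more genes lie above and to the left of those for peaks inside and between genes.

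Peaks at ends of a single gene had the width of the whole list but were wider at like fold. The median width was 289 bp (range 189 to 1973), against 291 bp for all peaks. Between 4-fold and 5-fold, peaks at single gene ends had a median width of 242 bp and other peaks 217 bp. Between 6-fold and 8-fold the medians were 326.5 and 277 bp. The order was the same in all 8 bands of fold, with the smallest gap at 20-fold and over, 601 against 582 bp. In each band their median −log10 q was also higher, for instance 10.4 against 8.81 between 6-fold and 8-fold. In bands of like −log10 q their median width was still the larger in all 8, for instance 295 against 271 bp between 7 and 10.

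**Figure D4:**
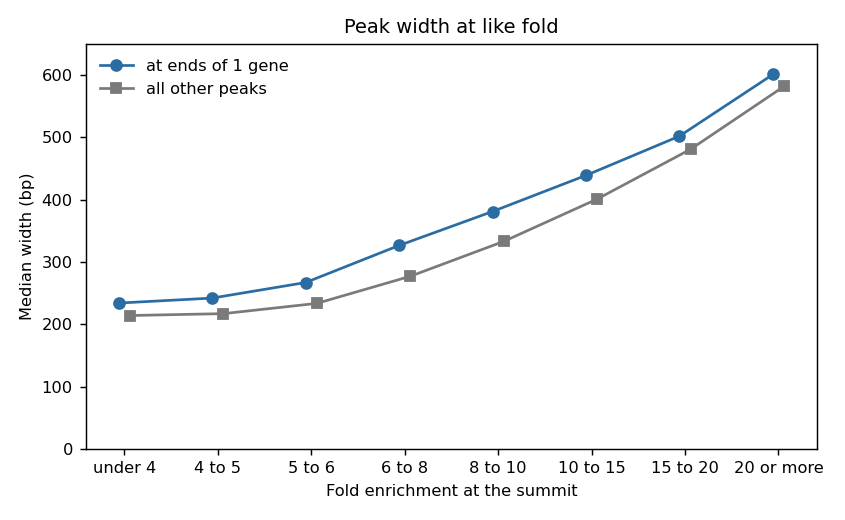
Median peak width (y axis, bp) in 8 bands of fold enrichment (x axis) for peaks at ends of 1 gene (blue circles) and all other peaks (grey squares). The blue points lie above the grey ones in every band.

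The widest peak, 1973 bp and 29.1-fold, lay 381 bp before the start of Hoxa2, a homeobox gene of hindbrain and neural crest patterning (chr6:52164169-52166141). Peaks of 1632 bp at Adgrl1, a latrophilin receptor, and 1494 bp at Tbx3, a T-box repressor of lung mesenchyme, followed. Among the 10 widest were also Tbl1xr1 at 1482 bp, Skil at 1452 bp and Ephb4 at 1427 bp. Tbl1xr1 encodes a transducin beta-like protein of transcriptional regulation and Skil an inhibitor of SMAD signalling. Nfib, a transcription factor of the lung mesenchyme, had a peak of 1337 bp, and Bcl9 and Usp9x had peaks of 1273 and 1263 bp. Some of these were only moderately enriched, with Skil at 7.15-fold and Nfib at 7.80-fold.

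Another summit lay within 10 kb of 1955 of the 4248 peaks (46.0%, interval 44.5 to 47.5), while 50.1% of all peaks had one. The median distance to the nearest other summit was 13074.5 bp, against 9918 bp for all peaks. The nearest other peak was itself at an end of a single gene in 42.5% of cases, inside a gene in 30.9%, between genes in 21.9% and at shared ends in 4.71%. The 42.5% includes second peaks at the same gene, and 28.7% of the peaks shared their gene with another such peak. An end of a long non-coding RNA gene lay within 1 kb of 14.4% of the peaks (interval 13.4 to 15.5), against 6.19% of all peaks. Such peaks had a median fold of 5.42, and those with no such end nearby had 5.50. A microRNA hairpin lay within 1 kb of 31 of the peaks (0.730%, interval 0.496 to 1.03), against 0.303% of all peaks.

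Most marked genes, 3030, had 1 peak, while 495 had 2, 68 had 3 and 6 had 4. Of 345 genes with exactly 2 peaks nearer the start, 196 (56.8%, interval 51.4 to 62.1) had one on each side of it. The median gap between those paired summits in all 345 genes was 577 bp. In the 196 genes the outer summit lay at a median of −172 bp and the inner at 421 bp from the start. A peak stood at both the start and the last base of 73 genes.

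The genes with 4 peaks were Hoxa2, Tcf21, Hoxb4, Kmt2c, Atp2a2 and Ctdsp1. Tcf21, a basic helix-loop-helix factor of lung mesenchyme, had its strongest peak, 20.7-fold, 785 bp past its last base (chr10:22816085-22816709). Its start peaks were weaker, at 6.01-fold and 5.30-fold. Hoxb4 also had its strongest peak at the last base, at 16.7-fold, and 4.401-fold at the start. At Hoxa2 the strong peak stood before the start, and the other 3 were 9.41-fold, 4.89-fold and 4.89-fold. Kmt2c, a histone methyltransferase, had 4 peaks at its start with folds of 9.80, 7.25, 6.01 and 3.81. Atp2a2, the calcium pump of the sarcoplasmic reticulum, had 4 peaks between 5.49-fold and 7.17-fold.

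The highest −log10 q, 192, belonged to a 37.6-fold peak 25 bp from an end of Tspan18, a tetraspanin (chr2:93334250-93334698). Nrep followed with a 40.04-fold peak and Kcnh2, a voltage-gated potassium channel of cardiac repolarisation, with a 37.4-fold peak 965 bp before its start (chr5:24352256-24352959). Tiam2, an activator of the GTPase Rac, had a 42.1-fold peak 105 bp inside its start (chr17:3326009-3326612). Tbc1d1, a regulator of Rab GTPases in glucose transport, had a 44.9-fold peak 156 bp before its start (chr5:64155907-64156507). For Kcnh2, Tiam2 and Tbc1d1 the nearest start listed in the promoter table lay further inside the gene, with the summits at −23058, −70789 and −4111 bp from it. Ppp1r14a, an inhibitor of myosin phosphatase in smooth muscle, had 36.5-fold at its start and 13.3-fold at its last base. Adamts4, a protease that cleaves aggrecan, had a 35.1-fold peak 809 bp outside one end.

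Mesenchymal transcription factors were marked often. Of 50 listed, 28 had a peak (56%, interval 41.3 to 70.01), and the median of each gene's best fold was 7.38, against 5.65 over all marked genes. A strong peak stood at 8 of the 50, while 1.61% of all genes had one. The higher median best fold was not particular to these factors. It was 7.98 for the 3 marked lung epithelium markers and 7.12 for the 4 marked cardiac muscle markers. For the 2 marked endothelial markers it was 4.64. Foxl1, a forkhead gene of gut and lung mesenchyme, had a 39.3-fold peak 147 bp from its end (chr8:121127328-121127968) and a second of 17.9-fold. Foxf1, needed for lung mesenchyme and vessels, had 8.01-fold. Genes of the same list without such a peak included Twist1, Hand2 and Prrx1.

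The T-box genes themselves differed. Tbx2 had 28.6-fold and 18.9-fold peaks at one end (chr11:85832040-85833139 and chr11:85831107-85831831) and 7.08-fold at the other. Tbx3 had 23.7-fold, 9.27-fold and 4.95-fold, and Tbx4 had 17.4-fold before its outermost start (chr11:85885995-85886496), at −10505 bp from the nearest listed start, and 5.49-fold at its last base. Tbx5 itself had no such peak.

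Hox genes were marked in 11 of 39 cases (28.2%, interval 15.001 to 44.9, which includes the 16.6% of all genes). The marked Hox genes were all in the Hoxa and Hoxb clusters. Their median best fold was 16.7, and 6 of the 39 carried a strong peak. Hoxb7 had 27.1-fold and Hoxa4 had 29.0-fold, 13.0-fold and 9.06-fold. None of the 9 listed Hoxd or 9 listed Hoxc genes was marked.

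Signalling pathways of lung growth were marked above the background share. The hedgehog pathway, by which epithelium instructs mesenchyme, was marked in 12 of 20 genes (60%, interval 36.1 to 80.9). Those included Gli3, a transcription factor, with 11.2-fold, Gas1, a co-receptor, with 10.8-fold, 8.23-fold and 6.85-fold, and Gli1 with 7.50-fold and 5.68-fold. The receptor Ptch1 had 6.10-fold and 5.88-fold on the 2 sides of its start, and the ligand genes Shh, Ihh and Dhh had no such peak.

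The BMP and TGF-beta pathway was marked in 26 of 45 genes (57.8%, interval 42.2 to 72.3). The receptor Bmpr1a had a 12.7-fold peak and the inhibitor Smad6 a 13.1-fold one, and a second of 6.58-fold. Bmp4, a ligand of the distal lung bud, had none. In the FGF pathway 13 of 25 genes were marked, and the highest in −log10 q were the feedback inhibitors Spred1 and Spry2 with 14.51-fold and 13.8-fold. Etv1, a transcription factor of the pathway, had a higher fold, 16.02, at a lower −log10 q. The ligand Fgf10 had no such peak.

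The Wnt, Notch and retinoic acid lists followed. In the Wnt pathway 17 of 54 genes were marked (31.5%, interval 19.5 to 45.6), among them the nuclear effector Tcf7l2 with 13.4-fold and the co-receptor Lrp6 with 9.15-fold. In the Notch pathway 9 of 28 were marked (32.1%, interval 15.9 to 52.4), with Maml3, a coactivator, at 16.1-fold and Hes1, a target repressor, at 6.70-fold. The interval for the Notch list includes 16.6%. Retinoic acid genes were marked in 6 of 22 (27.3%, interval 10.7 to 50.2, which also includes it), with the receptor Rxrg at 32.4-fold (chr1:167598293-167598860).

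Matrix and contractile genes were marked too. Among fibroblast and matrix genes 26 of 47 had a peak (55.3%, interval 40.1 to 69.8), with a median best fold of 6.26. Over all marked genes that median was 5.65. Eln, which encodes elastin, had 11.2-fold, Col3a1 14.1-fold and Col1a1 4.59-fold. Among smooth muscle and cytoskeletal genes 19 of 36 were marked, with a median best fold of 5.46. Tagln2 had 12.5-fold, Actb had 9.45-fold and 5.36-fold, and Acta2 had 7.54-fold 14 bp before its start. The contractile genes Tagln, Cnn1, Myh11 and Mylk and their regulator Myocd, on the same list, had no such peak.

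Lists of more general function were marked as well. Immediate early genes, which respond within minutes to growth factors, had a peak at 17 of 26 (65.4%, interval 44.3 to 82.8), with a median best fold of 5.08. Fosl2 had 10.2-fold and Klf4 8.57-fold. Chromatin regulators were marked in 29 of 60, with Kmt2a at 27.7-fold and Smarca4, the ATPase of the BAF complex, at 19.0-fold. Cell cycle genes were marked in 18 of 48 (37.5%, interval 23.95 to 52.6), with E2f7 at 9.50-fold and Myc at 8.64-fold, and clock genes in 7 of 23 (30.4%, interval 13.2 to 52.9, which includes 16.6%), with Bhlhe40 at 7.94-fold.

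Several housekeeping families, and zinc finger genes, also stood above the background. Cytoplasmic ribosomal proteins were marked in 26 of 84 (31.0%), spliceosome and SR proteins in 20 of 58, and Rab, Sec and Vps trafficking genes in 45 of 133. Zinc finger genes named Zfp and the like were marked in 115 of 465 (24.7%, interval 20.9 to 28.9). Other housekeeping families had intervals that include 16.6%. These were the proteasome (13 of 51), hnRNP (4 of 21), tRNA synthetases (7 of 37), and ATP synthase with cytochrome oxidase (7 of 44). The same held for mitochondrial ribosomal proteins (20.5%) and complex I (20.4%). Counting peaks at shared ends as well raised the counts of some families. Mitochondrial ribosomal proteins went from 16 to 31 of 78 and complex I from 10 to 21 of 49. The background then was 22.6%.

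Markers of other cell types were marked in smaller shares than the 16.6% of all genes, although the intervals for all but the blood and liver lists include it. Lung epithelium markers had a peak at 3 of 35 genes (8.57%, interval 1.80 to 23.1), with Sox9 at 9.43-fold and Etv5 at 7.98-fold, and Nkx2-1, which defines lung epithelium, had none. Endothelial markers had 2 of 31, Erg at 5.05-fold and Prox1 at 4.23-fold. Blood and immune markers had 1 of 32, Cd8a, and mesothelial markers 1 of 14, Podxl. Neuronal and neural crest markers had 4 of 26, among them Nefl at 6.78-fold and Dbh at 6.52-fold. Liver genes had 0 of 26, which allows a share of up to 13.2%.

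Cardiac muscle markers were counted because the source field names heart for the second ChIP library and the input. They were marked in 4 of 34 genes (11.8%, interval 3.30 to 27.5). Myl3, a myosin light chain of ventricle and slow muscle, had a 34.9-fold peak 722 bp before its start (chr9:110762723-110763280), and Actc1, cardiac actin, had 7.07-fold. Atp2a2 had up to 7.17-fold and Gata6, a factor of heart and lung, 4.46-fold. The rest of the list, Nppa, Myh6, Tnnt2 and Nkx2-5 among them, had no such peak. Actc1 was also on the smooth muscle list and Gata6 on that of mesenchymal factors. Kcnh2 and Csrp3, with peaks of 37.4-fold and 32.0-fold, were not on the cardiac list. A peak at a gene end does not show which tissue gave the chromatin. Whether heart chromatin entered any library was not tested.

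Chemosensory receptors, beta-defensins and chemokines with their receptors were almost free of such peaks. Olfactory receptors had 2 of 1110 marked (0.180%), vomeronasal receptors 0 of 355, beta-defensins 0 of 42 and chemokines with their receptors 0 of 54. Other receptor families were not. Genes named Gpr were marked in 8 of 75 (10.7%, interval 4.72 to 19.9, which includes 16.6%). Interleukins and their receptors were marked in 5 of 83 (6.02%).

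The lists were also counted among genes with CpG-rich promoters. Among all 8890 genes with a CpG ratio of at least 0.6, 26.4% were marked. At that CpG ratio, mesenchymal transcription factors were marked in 12 of 23, the BMP and TGF-beta pathway in 14 of 23, the matrix list in 7 of 11 and immediate early genes in 12 of 17. Hedgehog genes were marked in 5 of 8, Wnt in 9 of 31, Notch in 6 of 18, cell cycle in 13 of 33 and Hox in 3 of 12, and the intervals for these 5 lists include 26.4%. Epithelial markers at that CpG ratio were marked in 1 of 10 and endothelial markers in 2 of 7. The interval for the mesenchymal factors, 30.6 to 73.2, lies above 26.4%, and the intervals for the epithelial markers, 0.253 to 44.5, and the endothelial markers, 3.67 to 70.96, include it. Chromatin regulators were marked in 24 of 47 (interval 36.1 to 65.9) and FGF genes in 11 of 17 (interval 38.3 to 85.8). Smooth muscle and cytoskeletal genes were marked in 9 of 16 (interval 29.9 to 80.2). These intervals also lie above 26.4%, so that trait was not particular to the mesenchymal factors. The intervals for the retinoic acid, clock and tRNA synthetase lists include it.

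**Figure D5:**
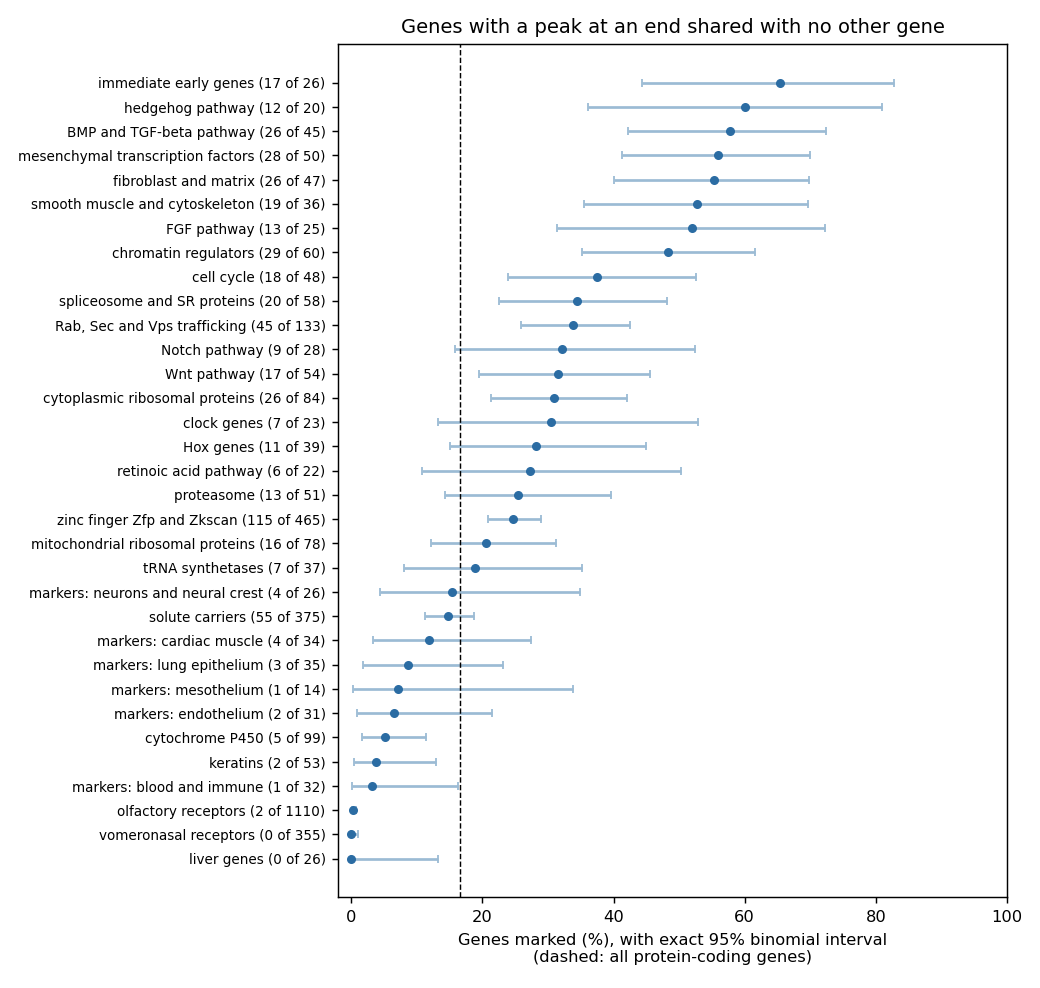
Share of genes marked (x axis, %) for each list or family (y axis, with counts), as points with exact 95% binomial intervals, beside the share of all protein-coding genes (dashed line, 16.6%). Immediate early, hedgehog, BMP and TGF-beta, mesenchymal and matrix genes lie at the top, and olfactory receptors, vomeronasal receptors and liver genes at the bottom.

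A single peak stood apart in the relation of fold to confidence. The peak at Lars2, a mitochondrial leucyl-tRNA synthetase, was 2.66-fold with a −log10 q of 14.6, while the other peaks under 3.5-fold reached at most 4.17. It lay 675 bp before the last base of the gene (chr9:123461821-123462180). The other marked tRNA synthetases, 6 of the 37 listed, included Yars2 with 10.1-fold and 4.13-fold on the 2 sides of its start.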

How the data were processed

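The authors deposited 1 peak list in the layout MACS2 writes. The submitters' processing notes name Bowtie2, SAMtools, MACS2 and mm10, with no version. Pooling of the ChIP libraries and use of the input as control are both not given in the sources used. For each peak the authors' list gives a fold over local background (a ratio), the summit's −log10 q-value, and a score; no normalisation across libraries can be read from it. The score was not used. The list has no header, and units were read from its layout and values. Depth is unknown, and a fold over local background depends on it. Starts are given 1-based.

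Summits were placed against 21631 RefSeq genes of GRCm38.p6 with Python 3 scripts (pandas, numpy, scipy), checked on simulated data. Strand and promoter letters came from RefSeq promoter windows, which cover 17274 genes; 906 peaks lacked a strand. The gene lists, 22 with 741 different genes, matched by symbol, and 35 families were set by symbol pattern. No test between samples was possible. Members and lists were chosen with earlier results of these data known. Named were the genes of the 10 peaks highest in −log10 q, in fold and in width, the 10 genes with most peaks, 2 per list with the highest −log10 q, and Tbx2, Tbx3, Tbx4, Tbx5, Rxrg, Ptch1, Gli1, Foxf1, Nkx2-1, Col1a1, Acta2 and Actb, 73 in all, some of which are not reported here. Other names, such as unmarked genes of a list and the genes of the printed promoters, were chosen for their place in a list or after their values were seen. Alternatives were other windows, stronger peaks, whole peaks, all annotated genes, autosomes only, shared ends and the T-box core.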

Additional observations from a re-analysis of the deposited data

How the results depend on the processing

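No paired analysis was possible because 1 list holds all libraries, and no library could be left out. A value is said to move where it leaves the exact 95% interval of the main value. The peaks at ends of 1 gene, 14.97% of the list, made up 12.3% with a window of 500 bp, 17.5% with 2 kb, 12.5% among the 50% of peaks with the highest −log10 q, 12.3% at a fold of at least 5, 15.6% when any part of the peak counted and 17.0% with all annotated genes. The share of genes marked, 16.6%, became 14.95%, 17.97%, 7.62%, 11.1% and 8.41% for the 500 bp, 2 kb, top 50%, 5-fold and all-gene settings, 17.2% on autosomes and 22.6% with ends of 1 or more genes. The median fold of 5.49 became 7.50 in the top 50%, 6.52 at 5-fold and 5.65 with all genes, and the median width of 289 bp became 371 and 329 bp in the former 2. The share with another summit within 10 kb, 46.0%, became 40.9%, 49.9%, 26.9%, 35.5% and 48.6% in the order 500 bp, 2 kb, top 50%, 5-fold and all genes. The share within 250 bp of the end, 58.9%, became 61.1% in the top 50%, 56.2% with whole peaks and 52.2% with all genes. The share at gene starts, 91.6%, became 94.1%, 87.4%, 90.3%, 90.04% and 84.9% in the order 500 bp, 2 kb, top 50%, 5-fold and all genes. The T-box letters stood in 11.2% of promoters with AGGTGT in place of AGGTGTGA, and the other settings for AGGTGTGA stayed within the interval. Fewer peaks or a narrower window give fewer marked genes by construction, and other causes were not tested. The alternatives for 6 gene lists were chosen after seeing the data. Over them the mesenchymal factors were marked in 40% to 60%, the BMP and TGF-beta pathway in 37.8% to 62.2%, the matrix list in 29.8% to 55.3%, the hedgehog list in 35% to 65%, epithelial markers in 5.71% to 11.4% and endothelial markers in 0% to 6.45%.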
